A study of Mus musculus with 12 samples.

Results

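Myc, its obligate partner Max and the other proteins that compete for Max formed the subject of this comparison. The genes were taken as a fixed set of 9 by symbol, out of the 43629 gene IDs in the deposited count table: Myc, Max, Mxd1, Mxd3, Mxd4, Mxi1 (also known as Mxd2), Mnt, Mga and Mlx. The rule names them by symbol and uses no measured value. All 9 were matched by their Ensembl IDs, and all 9 passed the filter on low counts in each comparison. They were followed by RNA sequencing over 12 libraries of B cells sorted from mouse spleen, 4 in each of 3 groups. Marginal zone (MZ) B cells, which sit at the edge of the splenic follicle, came from Zfp36l1fl/flERT2cre/+ mice, called Zfp36l1-deficient here (replicates 1, 2, 7 and 8), and from ERT2cre/ERT2cre mice, called control (replicates 3, 4, 5 and 6). Follicular (FO) B cells, which recirculate through the follicles, came from Zfp36l1fl/fl cre- mice (replicates 3, 4, 7 and 8). By these genotypes, deficient MZ cells carried the floxed Zfp36l1 allele and 1 copy of ERT2cre, and control MZ cells carried 2 copies of ERT2cre. The strain field reads Zfp36l1tm1.1Tnr for all 12 samples, those labelled ERT2cre/ERT2cre included. ERT2cre is a Cre recombinase fused to a modified oestrogen receptor domain, which is switched on by tamoxifen. The labels give neither an inducing treatment, the promoter that drives ERT2cre, nor the age of the mice. Since they are also silent on whether replicates were separate animals, the p-values speak only of the spread among these libraries, and that spread may be technical.

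Myc is a basic helix-loop-helix leucine zipper transcription factor that binds DNA only as a dimer with Max. The dimer recognises the E-box CACGTG and raises transcription of genes for ribosome assembly, translation and metabolism. Mxd1, Mxi1, Mxd3, Mxd4 and Mnt also pair with Max, bind the same E-boxes and recruit the Sin3 corepressor with histone deacetylases, while Mga pairs with Max inside a Polycomb complex, PRC1.6. Mlx is a Max-like protein that pairs with Mxd1, Mxd4 and Mnt as well as with the glucose-responsive factors Mlxip and Mlxipl. In B cells Myc is induced by antigen and by mitogens and precedes growth and division, and Myc mRNA is known to be short-lived. Zfp36l1 binds AU-rich elements in 3′ untranslated regions (UTRs) and speeds the decay of the mRNAs that carry them.

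To show what the members carry of such elements, the core heptamer TATTTAT was searched on the transcript strand of the longest annotated 3′ UTR of each gene (GENCODE M21, GRCm38). It was present in 4 of the 9 members, Max, Mxd1, Mnt and Mga, against 29.3% of the 11402 genes tested in the MZ libraries that had an annotated 3′ UTR. The 3′ UTRs of these 4 were 1299, 3829, 2405 and 4616 bases long, against a median of 1146 for the 11402 genes. Longer UTRs leave more room for a match, and length was not allowed for. Myc, Mxd3, Mxd4, Mxi1 and Mlx had no such match in these windows. In Myc the shorter pentamer ATTTA, which the heptamer contains, occurred 2 times in the 466-base 3′ UTR, and 69.3% of the same 11402 genes held at least 1. The pentamer occurred 9 times in Mxi1, 5 times each in Mxd1 and Mga, 2 times in Mlx and 1 time each in Max and Mnt. Mxd3 and Mxd4 held 0. The sites of Myc and of the heptamer-bearing members are given below from 5′ to 3′, with the motif in capitals.
Myc, first ATTTA: aacagatttgtATTTAattgttttttt
Myc, second ATTTA: taattttttttATTTAaagacattttc
Max: gatgttttgaTATTTATttcctgctac
Mxd1, first: ctataaatacTATTTATtcattttata
Mxd1, second: agcccctggaTATTTATatgtgaaagt
Mnt: tttaagtggaTATTTATtacaagtggc
Mga: aagatgaagaTATTTATatttttgtat
The Myc sites lie at chr15:61990136-61990162 and chr15:61990273-61990299 on the plus strand, and the Max site lies at chr12:76937765-76937791 on the minus strand. Those of Mxd1 are at chr6:86649849-86649875 and chr6:86648573-86648599 on the minus strand. The Mnt site is at chr11:74844327-74844353 and the Mga site at chr2:119966184-119966210, both on the plus strand.

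Because the network acts through the E-box, the members' own promoters were searched for CACGTG, which reads the same on both strands. RefSeq promoters (GRCm38.p6, 250 bases before to 50 after each start) were at hand for 8 members, all but Myc. The hexamer was present in 4 of these 8, Max, Mxd4, Mnt and Mlx, against 8.09% of the 27025 genes in the table. It began at −3 from the start of Max, at −219 from that of Mxd4, at −123 from that of Mnt and at −40 from that of Mlx. The sequences are given with the hexamer in capitals.
Max promoter: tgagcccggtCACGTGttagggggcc
Mxd4 promoter: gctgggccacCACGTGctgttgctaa
Mnt promoter: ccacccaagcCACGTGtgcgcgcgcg
Mlx promoter: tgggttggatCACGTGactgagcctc
These lie at chr12:76962236-76962261 and chr5:34187914-34187939 on the minus strand, and at chr11:74830791-74830816 and chr11:101087240-101087265 on the plus strand, in the order listed. Both searches describe letters in a window, and binding was not measured here.

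Libraries held 28938453 to 40664963 counts. None was identical to another, and the chi-square per gene between replicates was 5.78 to 48.6, above sampling noise. The targeted gene gave 22.0, 31.8, 28.1 and 37.5 CPM (counts over the TMM-scaled library total) in deficient MZ replicates 1, 2, 7 and 8, against 116, 109.6, 118 and 126 CPM in control MZ replicates 3, 4, 5 and 6. Zfp36l1 mRNA fell in deficient MZ cells, with a log2 change of −1.98 (SE 0.12; adjusted p = 4.18e-07, edgeR quasi-likelihood). Of its exon bases, 55.9% lie under exons of the other strand, and no source used here states whether the counting used strand. S1pr3, Cr2 and Cd1d1, which mark MZ cells, averaged 521, 3449 and 951 CPM in deficient MZ libraries, 561, 4114 and 642 CPM in control MZ libraries and 7.43, 1368 and 53.2 CPM in FO libraries. Of these, Cd1d1 rose in deficient over control MZ cells (log2 0.56, SE 0.10; adjusted p = 0.00742, edgeR quasi-likelihood), and Cr2 (log2 −0.26, SE 0.08; adjusted p = 0.0856, edgeR quasi-likelihood) and S1pr3 (log2 −0.12, SE 0.08; adjusted p = 0.438, edgeR quasi-likelihood) were not called. The part of the change in Cd1d1 in the network's changes was not tested. The labels give both sort gates as CD93+, yet Cd93 averaged 0.677 CPM in control MZ libraries, against 19.6 CPM in FO libraries. The series' design text gives a SMARTer kit, 5 ng of RNA and paired reads for MZ libraries, and a stranded TruSeq kit and single reads for FO libraries. In both MZ to FO comparisons, cell type, kit, read layout and genotype therefore cannot be told apart.

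In Zfp36l1-deficient MZ cells Myc and Mxd4 rose and Max fell, while no change was called for the other 6 members. Across the transcriptome, 3.76% of 13987 tested genes were called in this comparison (2.3% higher and 1.46% lower; edgeR quasi-likelihood, adjusted p under 0.05), and 3 of the 9 members were. The total of 526 genes behind that percentage fell to 299 without deficient MZ replicate 8 and to 309, 257 and 311 without control MZ replicates 3, 4 and 6. Beside it, control MZ and FO libraries differed in 81.3% of 13843 tested genes (42.6% higher and 38.7% lower in MZ), and 7 of the 9 members were among them. Deficient MZ and FO libraries differed in 81.1% of 13895 genes (42.8% higher and 38.3% lower in MZ), again with 7 of the 9 members. In the comparisons with FO the members' count was thus near the background, and it is the direction and size of single genes that are described. Each pair of these comparisons shares a group of 4 libraries, so their values are set side by side and are not independent. In bulk libraries fewer cells with an mRNA and less of it per cell cannot be told apart.

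**Figure D1:**
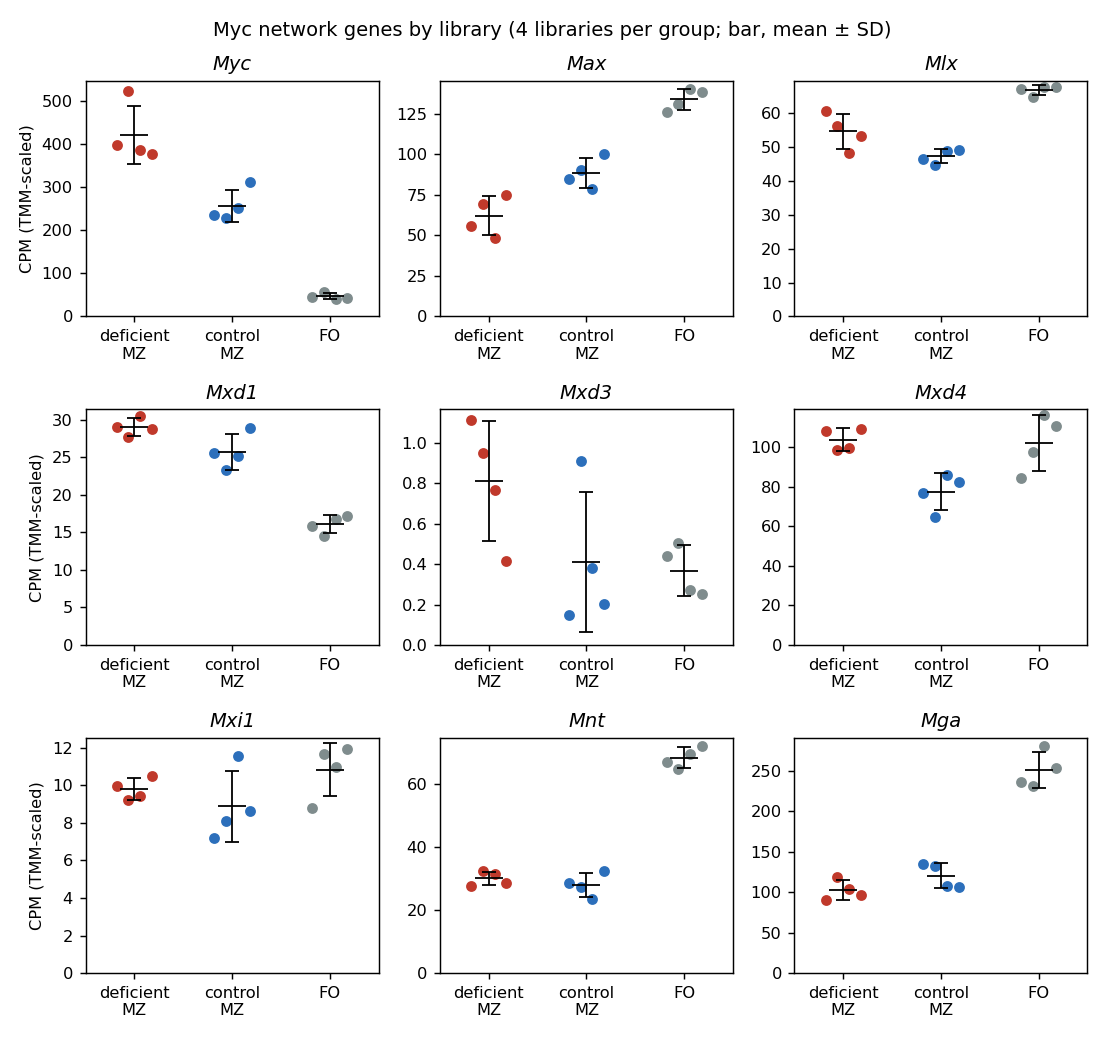
Level of each of the 9 network genes in every library, in TMM-scaled CPM on linear axes that start at 0, with 4 Zfp36l1-deficient MZ libraries (red), 4 control MZ libraries (blue) and 4 FO libraries (grey) and a bar for the mean ± SD. Deficient and control MZ points do not overlap for Myc, Max and Mxd4, and MZ and FO points lie apart for Myc, Max, Mlx, Mxd1, Mnt and Mga.

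Myc (chr15:61985391-61990374, plus strand), the activating arm of the network, was the most abundant member per length in MZ cells and had the widest range of all 9. Its level was 397, 522, 386 and 378 CPM in deficient MZ replicates 1, 2, 7 and 8, against 236, 228, 252 and 311 CPM in control MZ replicates 3, 4, 5 and 6. In FO replicates 3, 4, 7 and 8 it was 46.1, 56.3, 41.1 and 42.7 CPM. The 3 groups formed 3 separate bands, with deficient MZ replicate 2 above its group and control MZ replicate 6 nearest to the deficient libraries. Myc rose 1.63-fold in deficient over control MZ cells, a log2 change of 0.70 (SE 0.11; adjusted p = 0.00311, edgeR quasi-likelihood), and it was higher in 4 of 4 deficient libraries than in every control library. In the authors' deposited table this log2 change is 0.60 (adjusted p = 1e-06, DESeq2), against 0.71 with DESeq2 here. For Mxd3 the deposited value is 0.21, against 0.98 with DESeq2 here. The deposited values may thus be drawn towards 0 by their fit, and the gap is not read as a smaller effect. Without deficient MZ replicate 2 the edgeR log2 change of Myc was 0.59. Over FO cells Myc was 5.56-fold higher in control MZ cells (log2 2.47, SE 0.13; adjusted p = 1.79e-08, edgeR quasi-likelihood) and 9.23-fold higher in deficient MZ cells (log2 3.21, SE 0.13; adjusted p = 9.68e-11, edgeR quasi-likelihood).

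Myc mRNA can respond within minutes to handling or stimulation, together with other immediate-early genes. A list of 16 such genes, added after the values of Myc were seen, was therefore summed per library. Its sum was 895 to 1034 CPM in deficient MZ libraries, 828 to 878 CPM in control MZ libraries and 1139 to 1599 CPM in FO libraries. The deficient libraries all lay above the controls. The FO libraries had the highest sums, but they also differ from the MZ libraries in cell type, kit, read layout and genotype. Of the 14 genes tested, 2 were called in deficient over control MZ cells, both higher, beside 2.3% of all genes tested called higher. The first was Dusp1, a phosphatase of MAP kinases (log2 0.66, SE 0.12, adjusted p = 0.00738, edgeR quasi-likelihood). The other was Jund, an AP-1 subunit with 52.6% of its exon bases under other-strand exons (log2 0.45, SE 0.08, adjusted p = 0.0092, edgeR quasi-likelihood). The median log2 change of the 14 was 0.18, and their part in the change of Myc was not tested.

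Max (chr12:76937269-76962201, minus strand), the partner that Myc needs to bind the E-box, moved the other way. It gave 55.9, 69.5, 48.2 and 74.6 CPM in deficient MZ replicates 1, 2, 7 and 8, against 84.7, 90.2, 78.5 and 100.2 CPM in control MZ replicates 3, 4, 5 and 6. FO replicates 3, 4, 7 and 8 held 126, 131, 140.4 and 138 CPM. The groups did not overlap, although the gap between deficient replicate 8 and control replicate 5 was small beside the spread within either group. The authors' deposited table gives a log2 change of −0.43 in deficient over control MZ cells (adjusted p = 0.00228, DESeq2). That value may be drawn towards 0 like the one for Myc. Here the change was −0.52 with DESeq2 and −0.52 with edgeR (SE 0.12; adjusted p = 0.0268, edgeR quasi-likelihood). This call was lost when 1 of 5 libraries was left out: the adjusted p (edgeR quasi-likelihood) was 0.0989 without deficient replicate 1, 0.0514 without deficient replicate 7 and 0.055, 0.0762 and 0.0855 without control replicates 3, 4 and 6, at log2 changes from −0.54 to −0.42. Relative to FO cells Max was lower in control MZ cells (log2 −0.59, SE 0.07; adjusted p = 5.43e-06, edgeR quasi-likelihood) and in deficient MZ cells (log2 −1.08, SE 0.11; adjusted p = 1.51e-06, edgeR quasi-likelihood).

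Max lies 3.15 Mb from Zfp36l1 (chr12:80107754-80113013, minus strand), the locus that carries the floxed allele. The 17 protein-coding genes between Max and Zfp36l1 were read from the same fit, to show whether the stretch moved as a whole. Of the 14 that were tested in deficient over control MZ cells, 0 were called by edgeR (3 had an unadjusted p under 0.05, and DESeq2 called 1), 8 had a negative log2 change, and their median was −0.05. The nearest to a call was Atp6v1d, a subunit of the vacuolar proton pump, at a log2 change of 0.26 (SE 0.08; adjusted p = 0.0708, edgeR quasi-likelihood). Fut8, a fucosyltransferase and the tested gene of this stretch farthest from Zfp36l1, stood at −0.32 (SE 0.13; adjusted p = 0.201, edgeR quasi-likelihood). Within 20 Mb of Zfp36l1 on either side, 163 protein-coding genes were tested, of which 0 were called higher and 7 lower by edgeR, against 3 and 10 by DESeq2, beside 2.3% higher and 1.46% lower over all genes by edgeR. At an unadjusted edgeR p under 0.05 the counts were 10 higher (6.13%) and 26 lower (15.95%), against 9.38% and 9.79% of all genes tested. The 7 were Zfp36l1, Max, Dcaf5, Entpd5, Aldh6a1, Tmed10 and Angel1. Their log2 changes apart from Zfp36l1 ranged from −0.58 for Tmed10 to −0.39 for Angel1. The other 5 all lie on the far side of Zfp36l1 from Max, with midpoints from 0.28 Mb (Dcaf5) to 6.60 Mb (Angel1). Max, at −3.16 Mb, was the only gene called on its own side. All were picked by their adjusted p, which leaves out small changes, so the likeness of Max to the other 5 in size carries little information. Whether the position of Max beside the targeted locus has a part in its lower level was not tested.

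**Figure D2:**
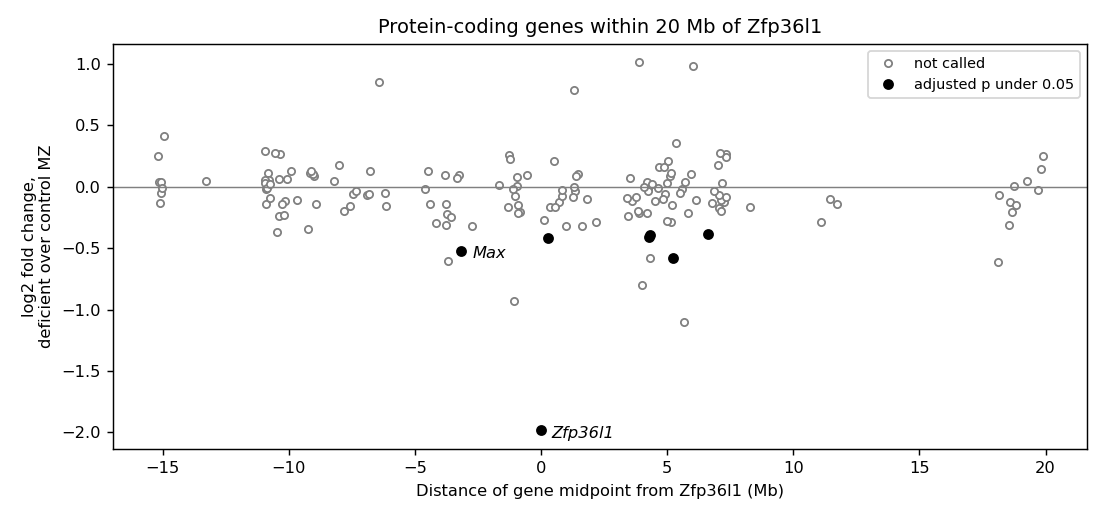
Log2 fold change of Zfp36l1-deficient over control MZ cells for the 163 tested protein-coding genes within 20 Mb of Zfp36l1, against the distance of the gene's midpoint from that of Zfp36l1 in Mb; filled points have an adjusted p under 0.05. All 7 filled points lie below 0, with Max at −0.52 and Zfp36l1 at −1.98, and most genes between them lie near 0.

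Among the Mxd repressors, Mxd4 (chr5:34173883-34187720, minus strand) was the most abundant and the one that changed in the MZ comparison. Mxd4 is linked to quiescent and differentiated cells. It gave 108, 98.4, 99.6 and 109 CPM in deficient MZ replicates 1, 2, 7 and 8, against 76.8, 64.5, 86.0 and 82.2 CPM in control MZ replicates 3, 4, 5 and 6. The 4 deficient libraries were all higher than the 4 controls, a 1.33-fold rise (log2 0.42, SE 0.08; adjusted p = 0.0134, edgeR quasi-likelihood). FO replicates 3, 4, 7 and 8 held 84.6, 97.4, 116 and 111 CPM, a range that took in all the deficient libraries and control replicate 5. Control MZ cells were lower than FO cells (log2 −0.39, SE 0.10; adjusted p = 0.00452, edgeR quasi-likelihood), and deficient MZ cells stood at a log2 difference of 0.05 from them (SE 0.09; adjusted p = 0.60, edgeR quasi-likelihood). Both the rise over control cells and the deficit of control cells against FO cells rest on the same 4 control libraries.

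Mxd1 (chr6:86647042-86669161, minus strand), which is induced as blood cells leave the cell cycle, was higher in MZ than in FO libraries, with no call between the MZ genotypes. It gave 29.0, 27.7, 30.5 and 28.7 CPM in deficient MZ replicates 1, 2, 7 and 8, and 25.5, 23.2, 25.1 and 28.9 CPM in control MZ replicates 3, 4, 5 and 6, with control replicate 6 inside the deficient range. The deficient over control log2 change was 0.17 (SE 0.09; adjusted p = 0.312, edgeR quasi-likelihood). All 8 MZ libraries lay above the FO range of 14.5 to 17.2 CPM. Mxd1 was higher than in FO cells both in control MZ cells (log2 0.69, SE 0.09; adjusted p = 5.78e-06, edgeR quasi-likelihood) and in deficient MZ cells (log2 0.88, SE 0.08; adjusted p = 2.5e-07, edgeR quasi-likelihood). Myc and Mxd1, whose proteins oppose each other at E-boxes, were thus both higher in MZ than in FO libraries.

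Mxi1 (chr19:53310518-53375810, plus strand) had low levels in every group. It ranged from 9.22 to 10.5 CPM in deficient MZ libraries, from 7.19 to 11.5 CPM in control MZ libraries and from 8.79 to 11.9 CPM in FO libraries, and the ranges overlapped throughout. The log2 change was 0.13 in deficient over control MZ cells (SE 0.14; adjusted p = 0.656, edgeR quasi-likelihood) and −0.28 in control MZ over FO cells (SE 0.15; adjusted p = 0.0943, edgeR quasi-likelihood). Without control replicate 5, the highest control, the difference from FO cells was called at −0.43 (adjusted p = 0.0089, edgeR quasi-likelihood), and without FO replicate 3 it was called at −0.38 (adjusted p = 0.0346, edgeR quasi-likelihood). Mxd3 (chr13:55325168-55329823, minus strand), which is unusual among Mxd genes in being expressed in cycling cells, had low counts. There were 13 to 38 counts in deficient MZ libraries, 6 to 34 in control MZ libraries and 9 to 16 in FO libraries. Its log2 change of 0.98 in deficient over control MZ cells was not called (SE 0.50; adjusted p = 0.30, edgeR quasi-likelihood), and that of 1.18 over FO cells was (SE 0.36; adjusted p = 0.00839, edgeR quasi-likelihood), although deficient replicate 8 lay within the FO range. Control MZ cells stood at a log2 difference of 0.17 from FO cells (SE 0.53; adjusted p = 0.779, edgeR quasi-likelihood), and at −0.56 without control replicate 4.

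**Figure D3:**
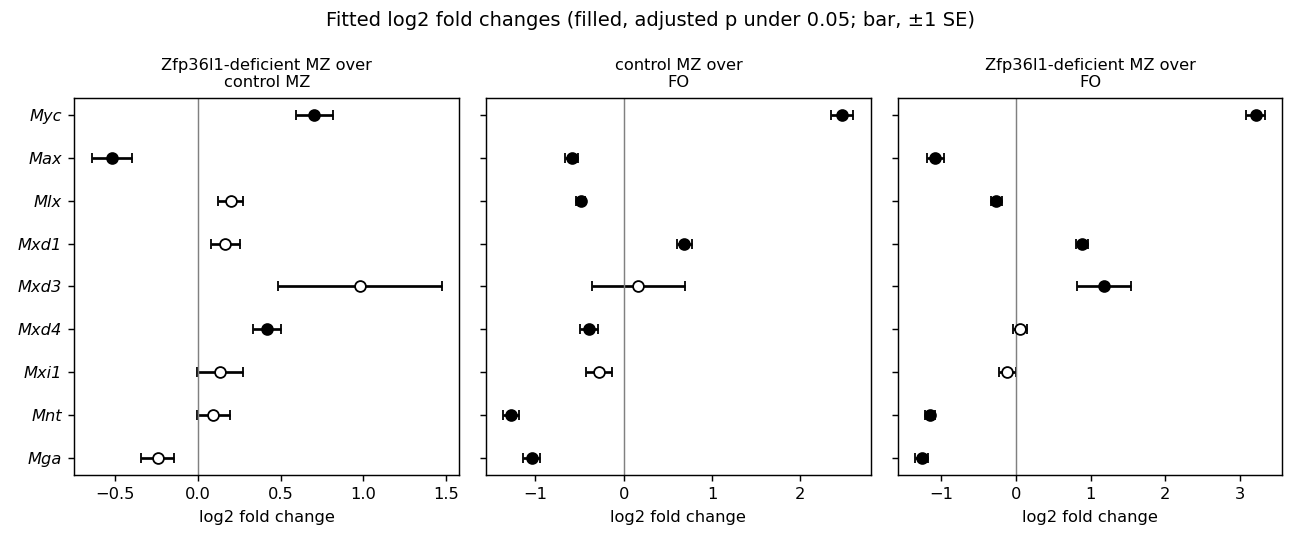
Fitted log2 fold change of each member with ±1 SE in the 3 comparisons, Zfp36l1-deficient over control MZ, control MZ over FO and deficient MZ over FO; filled points have an adjusted p under 0.05 over all genes tested. In the first panel Myc (0.70) and Mxd4 (0.42) lie above 0 and Max (−0.52) below it, and in both comparisons with FO Myc stands far to the right of the other 8 genes.

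Mnt (chr11:74830920-74845725, plus strand), the broadly expressed Max partner that restrains Myc in many tissues, was lower in MZ than in FO libraries, with no call between the MZ genotypes. Its level was 27.8, 32.4, 31.4 and 28.8 CPM in deficient MZ replicates 1, 2, 7 and 8, and 28.7, 27.3, 23.7 and 32.6 CPM in control MZ replicates 3, 4, 5 and 6. FO libraries held 64.7 to 72.2 CPM, more than any MZ library. Deficient and control MZ cells differed by a log2 change of 0.09 (SE 0.10; adjusted p = 0.667, edgeR quasi-likelihood). Against FO cells Mnt was lower both in control MZ cells (log2 −1.27, SE 0.09; adjusted p = 1.65e-08, edgeR quasi-likelihood) and in deficient MZ cells (log2 −1.15, SE 0.07; adjusted p = 4.64e-09, edgeR quasi-likelihood).

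Mga (chr2:119897228-119969581, plus strand), a very large protein with both a T-box and a Max-binding domain, was likewise lower in MZ than in FO libraries. Deficient MZ replicates 1, 2, 7 and 8 gave 90.1, 118, 105 and 96.4 CPM, against 135, 133, 108 and 106 CPM in control MZ replicates 3, 4, 5 and 6. Control replicates 3 and 4 lay above all deficient libraries, while control replicates 5 and 6 lay inside their range. The log2 change of −0.24 was not called (SE 0.10; adjusted p = 0.204, edgeR quasi-likelihood). FO libraries ranged from 231 to 281 CPM, and Mga was lower than there in control MZ cells (log2 −1.04, SE 0.09; adjusted p = 4.6e-07, edgeR quasi-likelihood) and in deficient MZ cells (log2 −1.26, SE 0.09; adjusted p = 2.08e-08, edgeR quasi-likelihood).

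Mlx (chr11:101087277-101092207, plus strand), the entry to the parallel Mlx branch, gave 60.6, 56.1, 48.3 and 53.3 CPM in deficient MZ replicates 1, 2, 7 and 8, against 46.5, 44.7, 48.6 and 49.1 CPM in control MZ replicates 3, 4, 5 and 6. Deficient replicate 7 lay among the controls and the other 3 above them. The log2 change was 0.20 (SE 0.08; adjusted p = 0.178, edgeR quasi-likelihood). In FO libraries Mlx held within 64.6 and 67.8 CPM, and it was lower in control MZ cells (log2 −0.49, SE 0.05; adjusted p = 8.79e-07, edgeR quasi-likelihood) and in deficient MZ cells (log2 −0.26, SE 0.07; adjusted p = 0.00404, edgeR quasi-likelihood). Of its exon bases 19.3% lie under exons of the other strand. Of the 4 further family genes looked up, Mycn, Mycl, Mlxip and Mlxipl, only Mycl and Mlxip passed the filter on low counts. Mlxip, a partner of Mlx, was lower in control MZ cells than in FO cells (124 ± 15.1 and 317 ± 14.9 CPM, SD, n = 4 each; log2 −1.34, adjusted p = 7.25e-09, edgeR quasi-likelihood), and Mycl stayed under 1 CPM on average in every group.

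Levels of different members can be compared only per length, and CPM were therefore divided by kb of exon, taken as the union of all annotated isoforms. In deficient MZ cells the order was Myc (155 CPM per kb), Mlx (27.3), Max (17.2), Mxd4 (12.2), Mga (6.67), Mnt (6.51), Mxd1 (4.10), Mxi1 (1.43) and Mxd3 (0.342). Of these neighbours only Mga and Mnt had overlapping ranges. In control MZ cells the order was Myc (94.5), Max (24.6), Mlx (23.6), Mxd4 (9.12), Mga (7.85), Mnt (6.07), Mxd1 (3.63), Mxi1 (1.30) and Mxd3 (0.174). Max could not be set apart from Mlx there, nor Mga from Mxd4 or Mnt. In FO cells Max came first (37.2 CPM per kb), before Mlx (33.4), Myc (17.1), Mga (16.3), Mnt (14.8), Mxd4 (12.1), Mxd1 (2.27), Mxi1 (1.59) and Mxd3 (0.155). The ranges of Myc and Mga, and of Mga and Mnt, overlapped in FO cells. A union of isoforms overstates the length of genes with many of them, so the values per kb of such genes are understated.

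With the same values, the mRNAs of the 7 Max partners (Myc, Mxd1, Mxd3, Mxd4, Mxi1, Mnt and Mga) were added up as a pool, as a description without a test. Myc made up 83.0 ± 1.87% of the pool in deficient MZ libraries, 76.9 ± 2.07% in control MZ libraries and 26.7 ± 4.05% in FO libraries (SD, n = 4 each). The ranges, 81.7 to 85.7%, 75.1 to 79.7% and 22.8 to 31.7%, did not overlap. The 4 Mxd genes together took 9.89%, 11.7% and 24.9% in deficient MZ, control MZ and FO libraries, Mnt took 3.53%, 4.96% and 23.0%, and Mga took 3.60%, 6.52% and 25.4%. In FO cells the pool was thus divided into roughly equal parts, and in MZ cells most of it was Myc. Within the Mxd genes, Mxd4 held the larger part in every group, with 67.5%, 64.0% and 74.9%.

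The ratio of Myc to Max per kb was 9.16 in deficient MZ libraries (6.71 to 10.6), 3.85 in control MZ libraries (3.35 to 4.25) and 0.463 in FO libraries (0.387 to 0.570). It was lowest among the deficient libraries in replicate 8, which had the most Max of its group, and still above every control. The whole pool of partners was 11.03 times Max in deficient MZ libraries, 5.00 times in control MZ libraries and 1.73 times in FO libraries. These are ratios of mRNA, and protein was not measured.

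**Figure D4:**
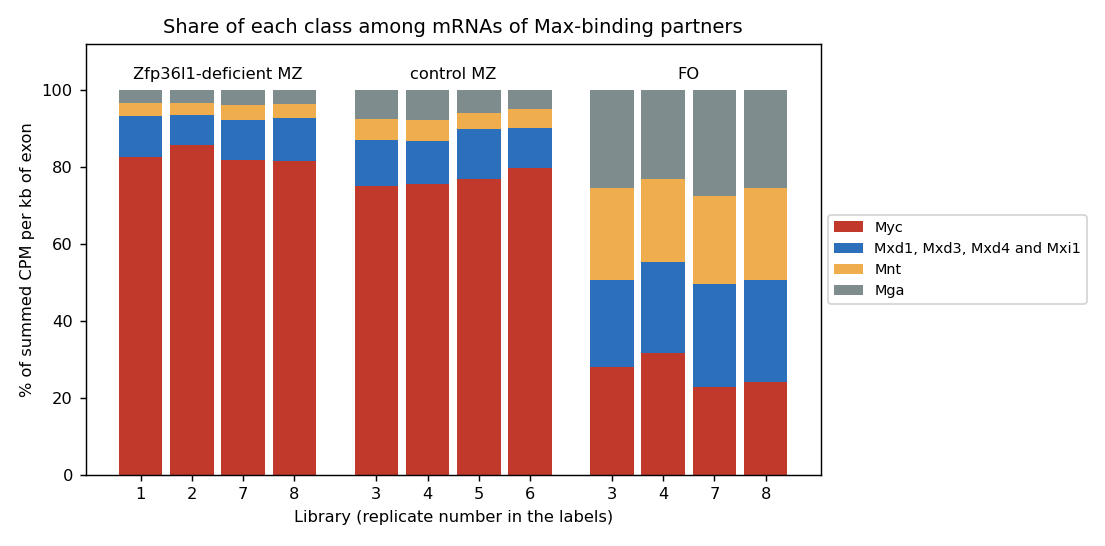
Share of Myc, of the 4 Mxd genes, of Mnt and of Mga in the summed CPM per kb of the 7 Max partners, as stacked bars in % for each library by its replicate number. Myc fills 81.7 to 85.7% of the bar in deficient MZ libraries, 75.1 to 79.7% in control MZ libraries and 22.8 to 31.7% in FO libraries.

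Within the MZ groups the members' deviations correlated in both directions. The deviations of log2 CPM from the group means over the 8 MZ libraries, which share their scaling and depth, had a Pearson correlation of 0.429 between Myc and Max and of 0.595 between Myc and Mnt. Over all pairs of members the lowest value was that of Mga with Mxd4 (−0.763) and the highest that of Mxi1 with Mxd4 (0.612). As the extremes of many pairs over only 8 libraries, such values can arise between unrelated genes. Over the same 8 libraries, with the groups left in, the 4 protein-coding genes most like Myc among 8527 were Cr1l (0.957), Trappc2 (0.952), Nomo1 (0.949) and Srsf6 (0.947). Those most like Max were Il10rb (0.977), Clcn6 (0.977), Cln3 (0.972) and Slc25a42 (0.956), and those most like Mxd4 were Btg2 (0.967), H2-K1 (0.964), Csk (0.964) and Rbm38 (0.960). These are the highest values among 8527 genes over only 8 libraries, where high correlations can arise between unrelated genes. The members were also picked because they differed between the groups left in. None of these 12 genes lies on the chromosome of the member it resembled, and of them Srsf6, a splicing factor, was called in deficient over control MZ cells (log2 0.32, SE 0.06; adjusted p = 0.0128, edgeR quasi-likelihood).

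Genes that the network is known to act on or work with were taken from lists chosen with earlier results of these data known, and each is described by its counts beside those of all genes. Of 73 tested Myc-activated target genes, mostly for ribosome assembly, nucleotide synthesis and translation, 4 rose and 0 fell in deficient over control MZ cells, while 69 were not called. The median log2 change was 0.10, against −0.0037 for all genes tested, of which 2.3% were called higher. Of the 73 values 59 were positive, against 49.2% over all genes. The 4 were Srm, which makes spermidine, Hspd1, a mitochondrial chaperonin, Eif4e, the cap-binding translation factor, and Nop56, a core protein of box C/D small nucleolar particles. Srm averaged 97.4 ± 10.97 CPM in deficient and 69.7 ± 7.09 CPM in control MZ cells (SD, n = 4 each), a log2 change of 0.47 (SE 0.09; adjusted p = 0.0105, edgeR quasi-likelihood). Hspd1 averaged 236 ± 28.7 and 175 ± 7.29 CPM in the same order (log2 0.42), Eif4e 107 ± 9.21 and 84.9 ± 6.98 CPM (log2 0.32), and Nop56 347 ± 18.5 and 285 ± 14.9 CPM (log2 0.27). The count of 4 was 2 without control MZ replicate 3, 4 or 6 and 8 without deficient MZ replicate 7, and DESeq2 called 10 higher and 1 lower. At an unadjusted edgeR p under 0.05, 20 (27.4%) were higher and 2 (2.74%) lower, against 9.38% and 9.79% of all genes tested. Several of these genes have processed pseudogenes, and no source used here states how reads shared with such copies were counted.

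Between control MZ and FO cells, 44 of the 73 targets were higher and 19 lower in MZ cells. Over all genes tested, 42.6% were higher and 38.7% lower. The median log2 change of the targets was 0.25, against 0.05 for all genes tested. Srm was again among the highest (69.7 ± 7.09 CPM in control MZ cells and 19.5 ± 1.43 CPM in FO cells, SD, n = 4 each; log2 1.85, adjusted p = 1.68e-10, edgeR quasi-likelihood), with Rcl1, a ribosomal RNA processing factor (log2 1.24), and Cdk4, the cyclin D kinase (log2 0.95). The targets that were lower included Tfrc, the transferrin receptor (30.7 ± 2.83 CPM in control MZ cells and 100.7 ± 3.08 CPM in FO cells, SD, n = 4 each; log2 −1.70, adjusted p = 3.25e-11, edgeR quasi-likelihood), Tbrg4 (log2 −1.40) and Pa2g4 (log2 −0.69). In deficient MZ over FO cells the counts were 48 higher and 16 lower, beside 42.8% and 38.3% of all genes tested. The median was 0.40, against 0.06 for all genes tested.

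Of 11 tested genes that Myc is known to repress, 0 were called in deficient over control MZ cells by edgeR, with 4 at an unadjusted p under 0.05 and 2 called by DESeq2 (1 higher, 1 lower), and the median was 0.14. In control MZ over FO cells 3 were higher and 6 lower, beside 42.6% and 38.7% of all genes tested. Cdkn1b, an inhibitor of cyclin-dependent kinases, averaged 20.1 ± 3.29 CPM in control MZ cells and 299 ± 24.0 CPM in FO cells (SD, n = 4 each; log2 −3.88, adjusted p = 1.44e-11, edgeR quasi-likelihood). Foxo3, a transcription factor of quiescence, averaged 7.96 ± 0.773 and 91.7 ± 6.42 CPM in the same order (log2 −3.51), and Klf6 was lower as well (log2 −1.69). Gadd45b, a stress-response gene, stood out on the other side with 63.8 ± 6.42 CPM in control MZ cells and 20.5 ± 0.49 CPM in FO cells (log2 1.65), with Ccng2 (log2 0.60) and Btg1 (log2 0.19).

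**Figure D5:**
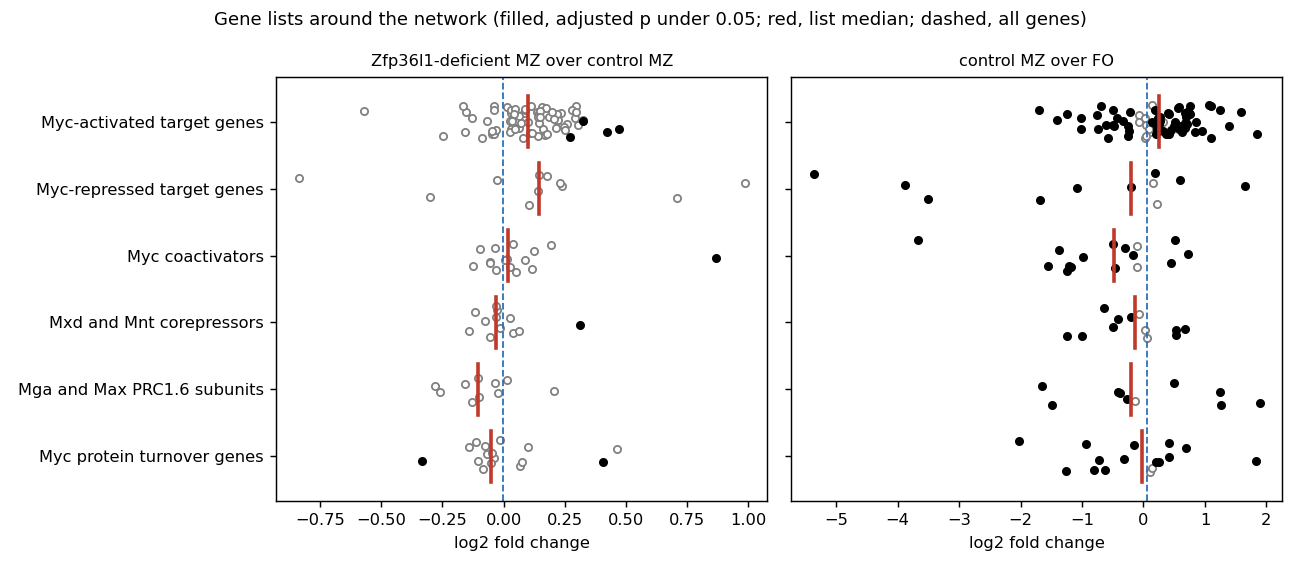
Log2 fold change of each tested gene in 6 lists around the network, for Zfp36l1-deficient over control MZ and for control MZ over FO; filled points have an adjusted p under 0.05, the red bar is the list's median and the dashed line the median of all genes tested. In the first panel nearly all points are open and the Myc-activated targets centre on 0.10, and in the second most points are filled, on both sides of 0.

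The counts of called cofactors between the MZ genotypes were small and are set beside the 3.76% of all genes called. Of 16 tested Myc coactivators 1 rose in deficient over control MZ cells, Pim1, a kinase that cooperates with Myc in lymphoid tumours (9.39 ± 2.17 CPM in deficient and 5.11 ± 0.668 CPM in control MZ cells, SD, n = 4 each; log2 0.87, adjusted p = 0.0115, edgeR quasi-likelihood), and the list's median was 0.02. Pim1 has 14.5% of its exon bases under other-strand exons. Of 12 corepressor genes 1 rose, Hdac1, a histone deacetylase (271 ± 30.6 CPM in deficient and 217 ± 15.6 CPM in control MZ cells, SD, n = 4 each; log2 0.31, adjusted p = 0.0465, edgeR quasi-likelihood), with a median of −0.03. Of 10 subunits of PRC1.6, the complex of Mga, 0 were called by edgeR (3 had an unadjusted p under 0.05, and DESeq2 called 1), with a median of −0.10. Among the tested genes for the turnover of Myc protein, Fbxl14, an F-box protein of a ubiquitin ligase, fell (log2 −0.33, SE 0.07; adjusted p = 0.0147, edgeR quasi-likelihood).

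Against FO cells most cofactors differed, as did most genes. Of the coactivators 3 were higher and 11 lower in control MZ cells, with a median of −0.48. Pim1 was lowest (log2 −3.67), followed by Ep400, a chromatin remodeller (log2 −1.55), and Ccnt1, the cyclin of P-TEFb (log2 −1.17), while Kat2a, a histone acetyltransferase (log2 0.73), Ruvbl1 (log2 0.52) and the P-TEFb kinase Cdk9 (log2 0.45) were higher. Of the corepressors 3 were higher, with Sap30 at 0.68, and 6 lower, with the scaffold Sin3a at −1.24. Among PRC1.6 subunits Tfdp1 (log2 1.90), E2f6 (1.26) and Yaf2 (1.24) were higher, and Cbx3 (−1.65), Rybp (−1.49) and L3mbtl2 (−0.41) were lower, of 4 and 5 called. For Myc protein turnover 6 were higher and 8 lower, from Trim32 (log2 1.83) to the ubiquitin ligase Huwe1 (log2 −2.03). These calls stand beside a background in which 81.3% of genes were called.

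Markers of other splenic cells were summed per library, since a few such cells could bring in their own network mRNAs. In deficient MZ, control MZ and FO libraries, the 12 T and NK cell markers summed to 59.9 to 71.6, 58.7 to 70.7 and 41.2 to 52.0 CPM. The 14 macrophage and neutrophil markers summed to 29.3 to 43.4, 28.3 to 32.1 and 14.8 to 33.0 CPM, the 8 dendritic cell markers to 50.5 to 76.6, 46.7 to 56.0 and 36.8 to 63.1 CPM, and the 10 erythroid and platelet markers to 14.7 to 40.2, 12.2 to 28.9 and 5.13 to 10.9 CPM. All these ranges overlap between deficient and control MZ libraries, and they lie far below the 25838 to 31226 CPM of the 14 B cell and sort markers. Most of the T and NK cell sum was Lck (39.6 CPM in deficient and 41.5 CPM in control MZ cells) and Prf1 (22.3 and 20.5 CPM). Neither was called, and the overlap of this sum can therefore hide changes in the scarcer markers. Among the markers of these lists, Cd8a (log2 2.04), Tcf7 (log2 2.46), Adgre1 (log2 1.37) and Hbb-bt (log2 1.44) rose in deficient over control MZ cells. Each rose to at most 4.50 CPM on average. Cd3e, Cd4 and Ncr1 were at 0 in all control MZ libraries, and Ncr1 also in all deficient ones. The 8 plasma cell and germinal centre markers were the exception, with 164 to 182 CPM in deficient MZ, 222 to 239 CPM in control MZ and 399 to 443 CPM in FO libraries. Irf4, which drives plasma cell formation and made up most of that sum in MZ libraries, fell in deficient over control MZ cells (log2 −0.52, SE 0.07; adjusted p = 0.000744, edgeR quasi-likelihood). Their part in the network's changes was not tested.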

How the data were processed

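RNA from 12 sorted B cell samples was sequenced, grouped by the labelled cell type and genotype. The gene set, the gene lists and the tests were chosen with earlier results of these data known, and the immediate-early list and edgeR without robust estimation were added after seeing the data. The submitters' processing notes name the build GRCm38 and the tools DESeq2 1.10.1, HTSeq, TopHat2 2.0.12 and Trim Galore, without their order. For the annotation release, counting mode and strand setting, nothing is given in the sources used here. The authors deposited raw counts per Ensembl gene, with no pooling. The authors' deposited normalised signal, raw counts over 1 factor per library, was not used for tests, nor was the mean signal or the test statistic score of their tables. The authors' deposited log2 fold changes, signed linear folds and p-values come from 2 comparison tables. The design text gives 100 bp reads and the SMARTer kit for MZ and the TruSeq kit for FO libraries, while the extraction protocol names SMARTer kits for all samples.

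Counts were tested here with edgeR 4.0.16 (R 4.3.3): TMM scaling, the package's group-wise low-count filter at its defaults, a robust quasi-likelihood fit and Benjamini-Hochberg adjustment over all genes tested, with an adjusted p under 0.05 as the call. Fits used the 8 libraries of the comparison only, and the procedure was tested on simulated data. The biological coefficient of variation was 0.123, 0.104 and 0.110 for deficient over control MZ, control MZ over FO and deficient MZ over FO. Levels were scaled over all 12 libraries, at a depth of 28938453 to 40664963 counts. SD covers the spread between libraries. The SE given with edgeR values is the size of the log2 change over the square root of the F statistic. That statistic uses a spread moderated across genes, so this SE is not the gene's own spread alone. Of the IDs, 42548 matched GENCODE M21, which gave symbols, exons and UTRs. Alternatives were DESeq2 1.42.0, its size factors in edgeR, no filter, 1 fit of all 12 libraries, no robust estimation, a block on replicate numbers and leaving out each library. Genes named beside the 9 were Zfp36l1, up to 6 called genes per list with the smallest p in deficient over control MZ, up to 3 per direction in control MZ over FO, the 4 genes most like each called member (Pearson, log2(CPM + 1), mean log2 CPM of at least 3) and genes near Max. The 7 genes called near Zfp36l1, and the markers and family genes without a call, were named after their values were seen. Some genes that the rule names are given only in the counts or are not reported here.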

Additional observations from a re-analysis of the deposited data

Results flagged for a closer look

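Myc in the Zfp36l1-deficient MZ group held 1 library far from the others. Replicate 2 had 522 CPM, and replicates 1, 7 and 8 had 397, 386 and 378 CPM. The gap from replicate 2 to the next library was 0.867 of the whole range of the group, above the critical value of Dixon's test at 95% for 4 samples. Such a gap arises by chance in about 1 of 20 groups, and 27 sets of a gene and a group were examined. Without that library Myc still rose in deficient over control MZ cells, with a log2 change of 0.59. Its level of Max, 69.5 CPM, was inside the range of its group.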

How the results depend on the processing

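Of 369 values of single members under an alternative, 358 kept their direction and their side of the threshold, 5 lost a call, 2 gained one and 4 changed sign. The 5 are the calls of Max given above and the 2 those of Mxi1. The sign changes were in values that were not called: Mxd3 in control MZ over FO was −0.56 without control MZ replicate 4 (−0.56 to 0.45 over the libraries left out) and −0.092 with a replicate block, and Mxd4 in deficient MZ over FO was −0.049 without FO replicate 3 (−0.049 to 0.099 over the libraries left out) and −0.090 with a replicate block. Myc in deficient over control MZ cells ranged from 0.59 to 0.81 when 1 library was left out, with an adjusted p of 5.38e-07 to 0.0183 over all alternatives (edgeR and DESeq2), and Mxd4 from 0.34 to 0.47, with an adjusted p of 0.000318 to 0.0489. In that comparison the genes called numbered 1052 with DESeq2, 790 with all 12 libraries in 1 fit and 257 to 506 with 1 library left out, and the members called 2 to 3. Myc-activated targets called higher numbered 10 with DESeq2, 7 with no low-count filter, 8 with all 12 libraries and 2 to 8 with 1 left out. Those called lower numbered 1 with DESeq2, 1 with all 12 libraries and 0 to 1 with 1 left out, the 1 being without deficient MZ replicate 1. The cause was not tested. With no low-count filter the median of all genes moved to 0.20 in control MZ over FO and 0.22 in deficient MZ over FO.

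Replicate numbers shared between MZ and FO samples go with different genotypes and were not taken as pairs. The deviations of same-numbered libraries correlated at −0.0512 and −0.119 for control MZ and FO replicates 3 and 4, and at 0.15 and 0.0144 for deficient MZ and FO replicates 7 and 8. With the replicate block, 9882 and 11016 genes were called in control and deficient MZ over FO, and 7 and 7 members. In that fit the difference from FO rests only on the replicate numbers found in both groups. These are 3 and 4 for control MZ and 7 and 8 for deficient MZ. Libraries with other numbers add nothing to it, and little is left to estimate the spread. The block is thus a weak check, and its values are among the 369 above. No paired analysis was possible for deficient over control MZ because these groups share no replicate number. Counts of 6 to 38 limit Mxd3.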
